A study of Mus musculus with 6 samples.

Results

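The genes described here are 9 of the major histocompatibility complex (MHC) class I system: the classical heavy chains H2-K1 and H2-D1, the nonclassical heavy chains H2-Q4, H2-Q7, H2-T22, H2-T23 and H2-M3, the shared light chain B2m, and the transactivator Nlrc5. They were chosen by symbol and joined across libraries by Ensembl identifier. All 9 were present among the 30406 genes shared by the 6 libraries. Live CD45+ cells had been sorted from mammary tumours grown in mice from injected Py8119 cells, a mouse mammary tumour line, and measured with droplet 3′ single-cell RNA-seq. The 6 groups held 1 library each and differed in where the gene Mtdh was knocked out (KO) or wild type (WT). They were KO mice without transplant (intact KO), WT mice without transplant (intact WT), and 4 bone marrow chimeras: KO marrow in KO host, KO marrow in WT host, WT marrow in KO host and WT marrow in WT host. Chimeras received tumour cells 8 weeks after the marrow, and all tumours grew for 4 weeks. The transplanted marrow replaces blood-forming cells only, so the host keeps its own non-blood tissue. The labels give no strain, age, number of mice per library or type of Mtdh allele.

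Class I molecules hold peptides from inside the cell on its surface, where CD8 T cells read them. The classical chains are highly polymorphic and present to conventional CD8 T cells, while the nonclassical chains bind narrower ligand sets or are read by NK cells and other lymphocytes. B2m is needed for folding and surface display of nearly all of these chains. Nlrc5 is a nuclear protein that drives class I promoters through a bound complex of other factors, and interferon gamma is a known inducer of it and of the chains.

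The 7 class I heavy chains lie on mouse chromosome 17 in the GRCm38 (mm10) assembly, within the MHC. In the GENCODE vM21 annotation H2-K1 spans positions 33996017 to 34000347 on the minus strand, and H2-D1 spans 35262730 to 35267499 on the plus strand. H2-Q4 (35379617 to 35385290) and H2-Q7 (35439155 to 35443773) lie next on the plus strand. H2-T23 (36029773 to 36032855) and H2-T22 (36037128 to 36042747) are neighbours on the minus strand, and H2-M3 spans 37270220 to 37274484 on the plus strand. B2m lies on chromosome 2 from 122147686 to 122153083, and Nlrc5 on chromosome 8 from 94434356 to 94527272, both on the plus strand.

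Because the heavy chains and B2m moved together in several cell classes below, the 150 bases upstream of their RefSeq starts (GRCm38.p6) are shown for 6 of them, chosen to cover classical chains, nonclassical chains and the light chain. RefSeq gave such a window for 8 of the 9 genes, the exception being Nlrc5. Capitals mark matches, on either strand, to the interferon-response type motif TTTCNNTT, the kappa B type motif, the CCAAT box and the TGACG element found in class I promoters; no matches overlapped. Each line runs 5′ to 3′ on the gene's own strand.
H2-K1, chr17:34000348-34000497, minus strand: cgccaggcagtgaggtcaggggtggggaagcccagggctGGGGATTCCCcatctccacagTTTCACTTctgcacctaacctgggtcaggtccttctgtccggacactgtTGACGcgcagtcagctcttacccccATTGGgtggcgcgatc
H2-D1, chr17:35262944-35263093, plus strand: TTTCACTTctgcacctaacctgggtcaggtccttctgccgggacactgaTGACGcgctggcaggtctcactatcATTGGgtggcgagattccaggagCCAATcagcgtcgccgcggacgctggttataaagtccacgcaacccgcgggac
H2-Q7, chr17:35439005-35439154, plus strand: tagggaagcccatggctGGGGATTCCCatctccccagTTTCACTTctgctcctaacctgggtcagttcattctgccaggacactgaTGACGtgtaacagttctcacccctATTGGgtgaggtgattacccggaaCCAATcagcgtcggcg
H2-T22, chr17:36042743-36042892, minus strand: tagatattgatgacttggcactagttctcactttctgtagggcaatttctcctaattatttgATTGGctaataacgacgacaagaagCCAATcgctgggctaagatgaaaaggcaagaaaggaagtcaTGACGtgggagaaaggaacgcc
H2-M3, chr17:37270084-37270233, plus strand: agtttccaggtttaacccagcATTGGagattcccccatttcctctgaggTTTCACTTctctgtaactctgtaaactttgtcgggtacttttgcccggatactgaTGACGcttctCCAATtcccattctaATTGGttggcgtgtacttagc
B2m, chr2:122147537-122147686, plus strand: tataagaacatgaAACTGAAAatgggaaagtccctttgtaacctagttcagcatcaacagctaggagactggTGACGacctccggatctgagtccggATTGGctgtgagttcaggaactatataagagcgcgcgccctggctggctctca

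The CCAAT box was found in 8 of 8 windows, TGACG in 7, TTTCNNTT in 6 and the kappa B type motif in 2, those of H2-K1 and H2-Q7. Among all 32851 RefSeq promoter windows of the same length, 24.5% held CCAAT, 13.3% TGACG, 12.4% TTTCNNTT and 0.0548% the kappa B type motif. The windows of H2-K1, H2-D1 and H2-Q7 share long runs of letters. The 8 windows are therefore not independent, and the counts are descriptions. The windows of H2-Q4 and H2-T22 had no TTTCNNTT match and that of H2-T23 had no TGACG match. The H2-Q4 window, not shown, opens with letters that in H2-Q7 begin inside its TTTCNNTT match, so the window edge may cut such a match. The H2-D1 window opens with its match. Letters further upstream were not searched, so a missing match holds for the window only. A match describes letters in a window and not a bound site.

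Of 41267 barcodes, 37988 cells were retained, with a median of 10549 to 18981 UMIs (unique molecular identifiers, counted RNA molecules) per cell and library. Marker gates placed 30554 cells in 13 classes. The 7 classes with at least 20 cells in every library were tested: macrophages (22897 cells), neutrophils (1008), type 1 conventional dendritic cells (cDC1, 232), mature dendritic cells (255), CD8 T cells (1984), conventional CD4 T cells (430) and mesenchymal-like cells (1613). Levels are given as CPM, the UMIs of a gene scaled to the same total of summed UMIs for every class and library. In the 7 tested classes these sums held between 162815 UMIs for neutrophils of the intact KO library and 104909736 UMIs for macrophages of the intact WT library. Among classes described by levels alone, regulatory T cells with KO marrow in WT host had a smaller sum of 89883 UMIs. Mtdh checked the genotype labels of the blood cells: its macrophage level was 12.7 to 18.7 CPM in the 3 libraries with KO blood cells and 109 to 112 CPM in the 3 with WT blood cells. The host labels of the chimeras were not checked by it, since macrophages there come from the marrow. Mesenchymal-like cells were defined by Krt8, Krt18, Sparc, Col4a1, Fstl1, Cald1 and Tpm2. Although the sort was for CD45+ cells, their level of Ptprc, which encodes CD45, was 4.92 to 10.2 CPM against 354 to 451 CPM in macrophages. Their Mtdh level was 409 to 468 CPM with KO marrow and 375 to 443 CPM with WT marrow. It was thus at least 375 CPM in every library, those with KO host included. For these cells, KO therefore names the mice of a library and not a measured loss of Mtdh. Whether they came from the host or from the injected tumour line was not tested. Fewer expressing cells and less RNA per cell cannot be told apart in such sums. Libraries shared 8 to 25 cell barcodes per pair.

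Of the 7 tested classes, CD8 T cells had the highest median CPM of both classical chains, mature dendritic cells that of B2m, and mesenchymal-like cells or neutrophils the lowest of each. CPM is a share of the UMIs of a class and not an amount per cell. Median UMIs per cell were 26903 in mesenchymal-like cells, 17206 in macrophages, 10466 in mature dendritic cells, 6744 in CD8 T cells and 2468 in neutrophils. Amounts per cell were not compared. H2-K1 had a median of 2752 CPM in CD8 T cells, with 1671 to 2859 over the 6 libraries. Conventional CD4 T cells followed at 2488 CPM (2173 to 4153), then mature dendritic cells at 1842 (1173 to 3517), cDC1 at 1174 (800.2 to 2024) and macrophages at 1064 (667 to 2791). Mesenchymal-like cells had 666 CPM (482 to 2513) and neutrophils 635 (317 to 1437). These ranges overlapped between neighbours. The order of medians did not always hold within libraries: H2-K1 was higher in CD8 T than in conventional CD4 T cells in only 1 of 6. For H2-T23 the same 2 classes kept their order in 2 of 6 libraries. For H2-M3, cDC1 lay above CD8 T cells in 2 of 6. Over the 9 genes, 54 pairs of neighbouring classes were compared within libraries by an exact sign-flip test, and none passed after Benjamini-Hochberg adjustment (smallest adjusted p = 0.0993, where 6 libraries allow an unadjusted p of 0.0312 at the lowest). Among classes with fewer cells, regulatory T cells reached 3684 CPM of H2-K1 (3605 to 4587, 4 libraries with at least 20 cells). B cells had 1368 CPM (832 to 1960, 5 libraries) and NK cells 1755 CPM (1206 to 2646, 5 libraries).

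The nonclassical chain H2-Q7, one of the Qa-2 antigens, differed most between classes. Its median ran from 1045 CPM in CD8 T cells (685 to 1272) and 835 CPM in conventional CD4 T cells (609 to 1288) down to 16.4 CPM in mesenchymal-like cells (7.97 to 59.9). That is a 63.9-fold span over the 10 classes with at least 5 usable libraries, against 4.33-fold for H2-K1, 2.75-fold for H2-D1 and 2.60-fold for B2m. H2-T23, which encodes Qa-1 and displays leader peptides to NK receptors, spanned 8.66-fold, from 152 CPM in CD8 T cells (69.5 to 184) to 17.6 CPM in mesenchymal-like cells (6.98 to 65.1). H2-T22, a ligand of some gamma-delta T cell receptors, was highest in CD8 T cells at 186 CPM (112 to 212) and lowest in macrophages at 35.2 CPM (23.6 to 93.1). H2-Q4, the Qb-1 chain, ranged from 70.1 CPM in conventional CD4 T cells (47.7 to 99.9) to 13.8 CPM in macrophages (9.84 to 33.0). H2-M3, which presents formylated peptides, had its highest median in cDC1 (86.6 CPM, 49.2 to 94.7) and its lowest in neutrophils (8.86 CPM). Neutrophil H2-M3 rested on 0 to 9 UMIs per library. The intact KO library had 0 UMIs, which allows up to 18.4 CPM. Near-identical sequence in this family (H2-Q6 and H2-Q7 above all) means that the authors' counting could split or drop reads between neighbours, so single-chain values are uncertain to that extent.

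**Figure D1:**
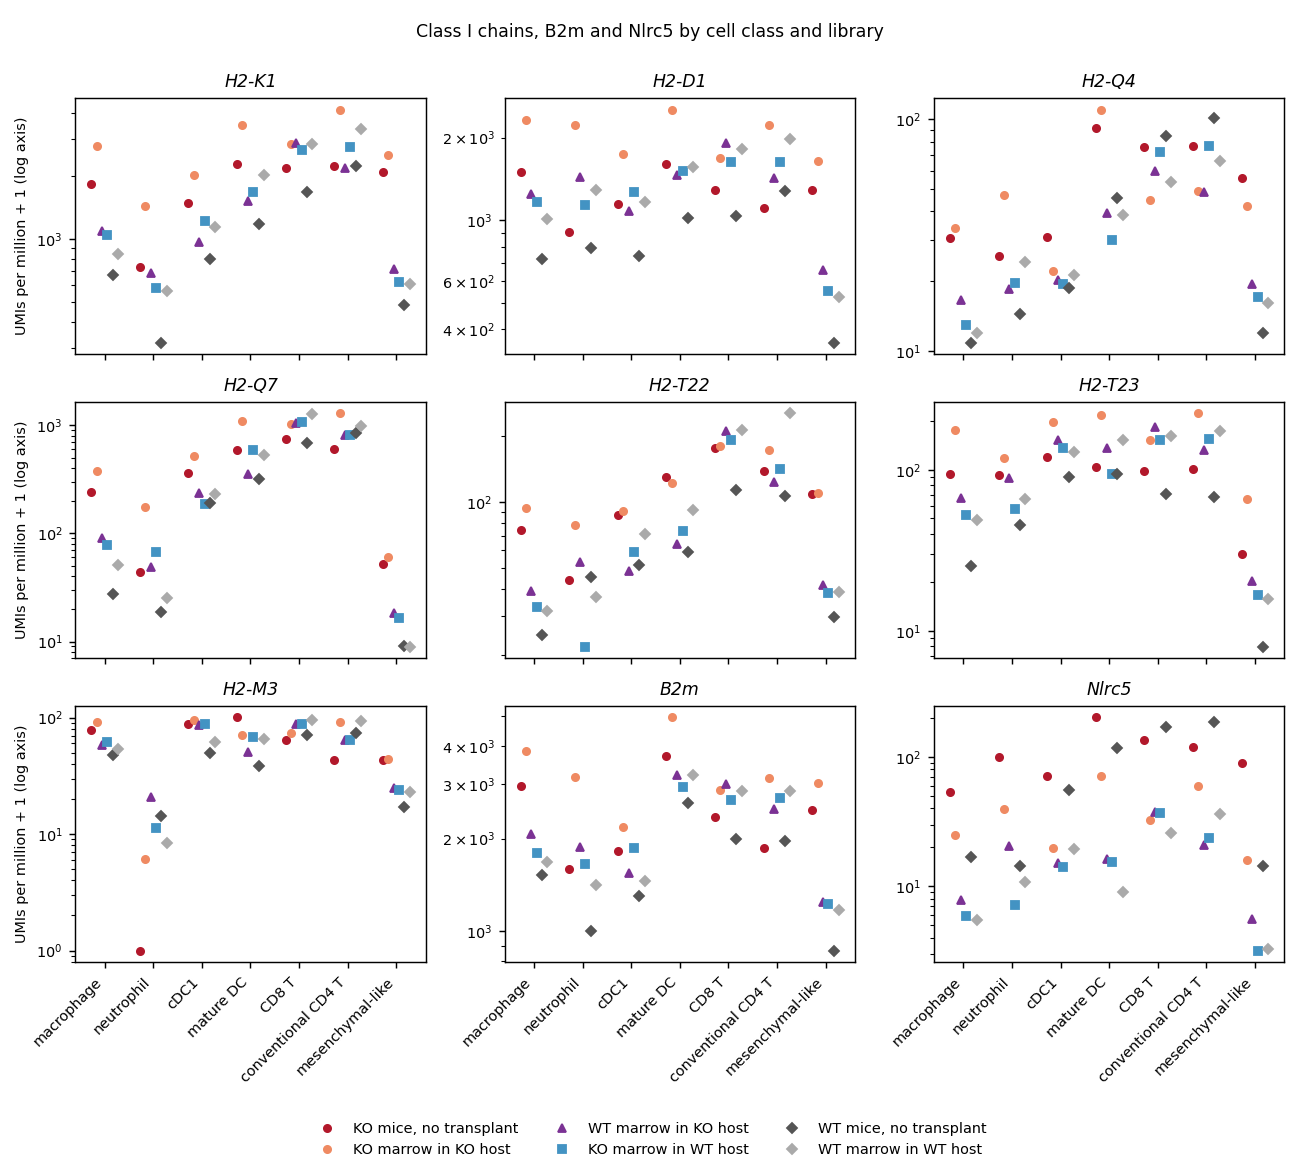
Levels of the 9 genes (CPM plus 1, log axis, each panel with its own range) in 7 cell classes; each point is 1 library, coloured by genotype and transplant. The red and orange points (KO in host and marrow) lie above the other 4 in macrophages and mesenchymal-like cells for all 9 genes, and for no gene do both lie above the other 4 in either T cell class.

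Tested against macrophages in 1 fit with the library as a block (edgeR quasi-likelihood, 6 libraries), 33 of 54 gene and class combinations passed at an adjusted p of 0.05, 25 higher and 8 lower. The share of all 9923 genes that passed was 65.7% for CD8 T cells, 54.8% for conventional CD4 T cells, 54.2% for mature dendritic cells, 48.3% for cDC1, 64.3% for neutrophils and 73.3% for mesenchymal-like cells, so a pass by itself does not set the members apart. By direction, 30.4% of genes were higher and 35.3% lower in CD8 T cells, 24.2% and 30.6% in conventional CD4 T cells, 24.1% and 30.1% in mature dendritic cells and 21.7% and 26.6% in cDC1. In neutrophils 26.6% were higher and 37.7% lower, and in mesenchymal-like cells 34.3% were higher and 39% lower. CD8 T cells were higher for 6 of 9 genes. H2-Q7 was 3.20 ± 0.38 (SE) higher on the log2 scale there, H2-T22 1.98 ± 0.22, Nlrc5 2.04 ± 0.35 and H2-K1 0.99 ± 0.21, with adjusted p-values of at most 0.000116 by edgeR. For H2-D1 and B2m in CD8 T cells the log2 differences were 0.25 ± 0.18 and 0.19 ± 0.17, which did not pass. Conventional CD4 T cells were also higher for 6 of 9, with H2-Q7 at 2.91 ± 0.38.

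Mature dendritic cells, which carry antigen to lymph nodes, were higher than macrophages for 8 of 9 genes. B2m was 0.75 ± 0.17 higher on the log2 scale (edgeR adjusted p = 0.000258) and H2-Q7 2.45 ± 0.37. H2-M3 did not pass (0.18 ± 0.21). In cDC1, which present tumour antigen to CD8 T cells, 3 of 9 were higher: H2-Q7 (1.34 ± 0.36), H2-T23 (1.03 ± 0.23) and H2-T22 (0.58 ± 0.23), and H2-K1 had a log2 difference of 0.01 ± 0.21. Neutrophils were higher for H2-Q4 and Nlrc5 and lower for H2-K1 (-0.50 ± 0.22) and H2-M3 (-2.34 ± 0.31).

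Mesenchymal-like cells were lower than macrophages for 6 of 9 genes and higher for 0. H2-Q7 differed by -2.61 ± 0.37 on the log2 scale, H2-T23 by -1.90 ± 0.22, H2-M3 by -1.48 ± 0.18, H2-D1 by -0.97 ± 0.18, B2m by -0.77 ± 0.17 and H2-K1 by -0.57 ± 0.21. H2-Q4 (0.20 ± 0.23), H2-T22 (0.03 ± 0.20) and Nlrc5 (-0.53 ± 0.32) did not pass. Macrophage transcripts in these cells were measured with the complement genes C1qa, C1qb and C1qc, whose summed level was 1.76% to 2.66% of that in macrophages of the same library. These genes are among the macrophage markers, which the gates held under 30 UMIs per 10000 in other classes, so the gate itself limits this share. H2-K1 was at 59.4% to 114%, B2m at 57.1% to 84.1% and H2-Q7, the lowest, at 15.8% to 30.3% of the macrophage level. The part of macrophage RNA in these levels was not tested. In the other tested classes the complement share was 2.58% to 8.01%.

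The balance of classical to nonclassical chains separated the classes. It is the ratio of H2-K1 plus H2-D1 UMIs to the UMIs of the 5 nonclassical chains in a class of a library. Each molecule gives 1 tag near its 3′ end, so no length scaling was applied, and the ratio is used to compare classes and not genes. CD8 T cells had 2.60 to 3.05 classical UMIs per nonclassical UMI, conventional CD4 T cells 2.93 to 3.50, mature dendritic cells 3.72 to 4.68 and cDC1 3.79 to 5.10. Macrophages had 6.47 to 10.6, neutrophils 8.06 to 11.8 and mesenchymal-like cells 10.9 to 13.1. The ranges of both T cell classes, mature dendritic cells and cDC1 therefore lay wholly below those of macrophages, neutrophils and mesenchymal-like cells. Type 2 conventional dendritic cells, which were not tested, had 4.49 to 6.50 (5 libraries), a range that overlapped that of macrophages.

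Relative to macrophages of the same library, the log2 ratio was lower by 1.58 ± 0.39 (SD, n = 6) in CD8 T cells and by 1.36 ± 0.38 in conventional CD4 T cells. It was lower by 1.08 ± 0.29 in mature dendritic cells and by 1.02 ± 0.29 in cDC1, and higher by 0.48 ± 0.36 in mesenchymal-like cells. Each of these 5 differences had the same sign in 6 of 6 libraries and an adjusted p of 0.0375 by the exact two-sided sign-flip test over 6 classes, whose smallest unadjusted p is 0.0312. Neutrophils differed by 0.14 ± 0.27 (higher in 5 of 6 libraries, exact adjusted p = 0.219). Without H2-Q4 and H2-Q7 in the nonclassical sum, all 6 differences were nearer to 0. The mature dendritic cell difference was then -0.20 (exact adjusted p = 0.075). CD8 T cells differed by -0.48, conventional CD4 T cells by -0.25, cDC1 by -0.74 and mesenchymal-like cells by 0.22 (exact adjusted p = 0.0469 for each), and neutrophils by 0.05 (exact adjusted p = 0.719). As a mean over cells of the log2 ratio with 1 UMI added to each sum, the mesenchymal-like difference was 0.15 (exact adjusted p = 0.531) and the neutrophil difference turned to -1.02 (exact adjusted p = 0.0375).

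H2-K1 and H2-D1 themselves were not in 1 fixed proportion, a comparison added after the data were seen. The log2 ratio of H2-K1 to H2-D1 was 0.58 to 0.76 in CD8 T cells and 0.62 to 1.02 in conventional CD4 T cells, but -1.32 to -0.30 in neutrophils. Against macrophages, it was higher in 6 of 6 libraries in both T cell classes, mature dendritic cells and mesenchymal-like cells, and lower in 6 of 6 in neutrophils (exact sign-flip adjusted p = 0.0375 for each). For cDC1 the exact adjusted p was 0.0938.

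**Figure D2:**
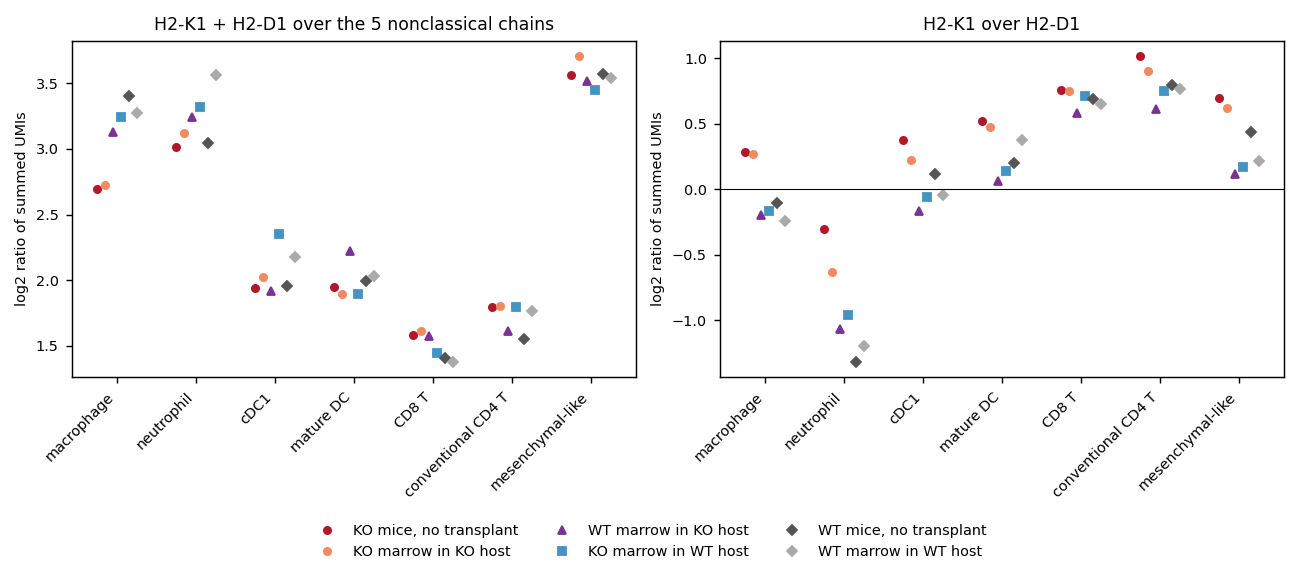
Left, log2 ratio of H2-K1 plus H2-D1 UMIs to the UMIs of the 5 nonclassical chains; right, log2 ratio of H2-K1 to H2-D1 UMIs. Each point is 1 library in 1 class. On the left, both T cell classes, mature dendritic cells and cDC1 sit below macrophages, neutrophils and mesenchymal-like cells. On the right, neutrophils are the plotted class with values under 0 in every library.

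In macrophages and mesenchymal-like cells, the members were highest where host and marrow were both KO. In macrophages H2-K1 was 1825 CPM in the intact KO library and 2791 CPM with KO marrow in KO host. It was 1087 CPM with WT marrow in KO host, 1042 with KO marrow in WT host, 667 in intact WT and 849 with WT marrow in WT host. Macrophage H2-D1 was 1497 and 2311 CPM in the libraries with both KO, against 719 to 1245 in the other 4. B2m was 2952 and 3851 CPM against 1518 to 2076. H2-Q7 was 240 and 380 CPM against 26.7 to 89.0. In all 9 genes the lower of the 2 libraries with both KO stood above the highest of the other 4. The share of all genes with such a separation was not computed.

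The mesenchymal-like cells showed the same separation in 9 of 9 genes. Their H2-K1 level was 2082 CPM in the intact KO library and 2513 CPM with KO marrow in KO host. It was 714 CPM with WT marrow in KO host, 619 with KO marrow in WT host, 482 in intact WT and 609 with WT marrow in WT host. H2-D1 was 1288 and 1638 CPM against 356 to 658, and B2m 2483 and 3030 CPM against 867 to 1245. H2-T22 was 108 and 109 CPM against 28.7 to 40.6, H2-T23 29.1 and 65.1 against 6.98 to 19.5, and H2-Q7 51.5 and 59.9 against 7.97 to 17.4.

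CD8 T cells showed no such separation. H2-K1 was 2180 CPM in intact KO, 2834 with KO marrow in KO host, 2859 with WT marrow in KO host, 2670 with KO marrow in WT host, 1671 in intact WT and 2847 with WT marrow in WT host. The lowest value belonged to intact WT, and the other chimeras were level with KO marrow in KO host. H2-Q7 was 747 and 1031 CPM in the libraries with both KO against 685 to 1272 in the other 4. In both T cell classes 0 of 9 genes were higher in both of those libraries than in all others, against 9 of 9 in macrophages and mesenchymal-like cells, 6 in mature dendritic cells, 5 in cDC1 and 4 in neutrophils. These counts are descriptions, since the share of all genes separated in that way was not computed.

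A term for KO in both compartments, beside one for transplantation, was fitted to each class (edgeR quasi-likelihood, 3 residual degrees of freedom). This grouping was formed with earlier results of these data known, so its p-values do not allow for that choice. Over the 7 classes 27 of 62 tests passed, all higher. In macrophages 9 of 9 genes rose, where 17.8% of all 14685 genes tested were called and 9.62% rose. The median log2 change of the 9 was 1.58, against -0.01 over all genes. H2-Q7 rose by 2.82 ± 0.28 (SE), Nlrc5 by 2.07 ± 0.18, H2-T23 by 1.88 ± 0.15, H2-T22 by 1.63 ± 0.11, H2-K1 by 1.58 ± 0.11 and H2-Q4 by 1.56 ± 0.16. H2-D1 rose by 1.14 ± 0.10, B2m by 1.12 ± 0.10 and H2-M3, the smallest, by 0.80 ± 0.09. Adjusted p-values lay between 0.00171 and 0.00481 by edgeR. In macrophages without a UMI of the interferon-induced chemokine Cxcl9, 9 of 9 still rose, H2-K1 by 1.36 ± 0.09 and H2-Q7 by 2.72 ± 0.17.

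Mesenchymal-like cells also rose in 9 of 9 genes, where 2.5% of 12075 genes were called and 1.81% rose. H2-K1 rose by 2.06 ± 0.11 (edgeR adjusted p = 8.5e-05), Nlrc5 by 2.55 ± 0.29, H2-Q7 by 2.35 ± 0.31, H2-T23 by 2.02 ± 0.16, H2-D1 by 1.68 ± 0.14, H2-Q4 by 1.72 ± 0.23, H2-T22 by 1.69 ± 0.13, B2m by 1.44 ± 0.10 and H2-M3 by 1.12 ± 0.16. The summed level of the 6 macrophage markers, which the gate keeps low in these cells, was 307 to 325 CPM in the libraries with both KO. In the others it was 364 to 484 CPM. With both KO, the 5-gene T cell list in these cells was 6.13 to 22 CPM against 2.22 to 6.77 and the 6-gene NK list 201 to 221 against 112 to 159. The 5-gene plasmacytoid dendritic cell list was 996 to 1104 CPM against 410 to 586. Of the 14 marker lists of other classes, 5 were higher without overlap in mesenchymal-like cells of the libraries with both KO and 2 were lower. In macrophages 8 of 14 were higher without overlap and 1, the mesenchymal-like list, was lower (18.7 to 26 CPM against 36 to 39). The T cell list there was 9.08 to 30.3 CPM against 3.02 to 7.55, and the 6-gene cDC1 list 243 to 278 against 109 to 151. The list of type 2 conventional dendritic cells was 120.4 to 128 CPM against 49.4 to 62, that of mature dendritic cells 49.5 to 63.4 against 31.6 to 46, and that of plasmacytoid dendritic cells 722 to 799 against 558 to 677. CD8 T cells carried 4358 to 6509 CPM of the T cell list. The part of these markers in the result was not tested.

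In mature dendritic cells 5 of 9 genes rose (1.43% of all genes called, 0.856% rose): H2-Q4 by 1.32 ± 0.29, Nlrc5 by 1.44 ± 0.32, H2-Q7 by 0.99 ± 0.19, H2-K1 by 0.91 ± 0.16 and H2-D1 by 0.62 ± 0.16. In cDC1 2 of 9 rose (1.28% of all genes called, 0.674% rose), H2-Q7 by 1.05 ± 0.17 and H2-K1 by 0.80 ± 0.14. In neutrophils 2 of 8 rose (0.986% called, 0.839% rose), H2-Q7 by 1.86 ± 0.37 and H2-K1 by 1.24 ± 0.23, H2-M3 being below the count filter. Without the library of KO marrow in KO host these counts were 0, 1 and 1, while macrophages kept 9 calls and mesenchymal-like cells 8. Mature dendritic cells had 3 calls without intact KO or without WT marrow in KO host. Neutrophils had 0 without either library of WT marrow, 1 without KO marrow in WT host and 3 without either intact library. When cells of classes other than macrophages with a complement share above their class median were left out, mesenchymal-like cells kept 9 calls and the other 3 classes had 0.

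No member passed in CD8 T cells (0 of 9, 3.92% of all genes called, 1.39% rose) or conventional CD4 T cells (0 of 9, 0.414% called, 0.36% rose). At an unadjusted p under 0.05 the counts were also 0 in both by edgeR, against 1406 of 8463 genes in CD8 T cells and 339 of 5552 in conventional CD4 T cells. DESeq2 called 0 in both. H2-K1 in CD8 T cells differed by 0.11 ± 0.11, H2-D1 by 0.03 ± 0.13, B2m by 0.05 ± 0.11 and H2-Q4 by -0.43 ± 0.20. In conventional CD4 T cells H2-K1 differed by 0.35 ± 0.25 and H2-T23 by 0.51 ± 0.25. Among classes with at least 10 cells in every library, an alternative added after seeing the data, 1 of 9 rose in NK cells (0.455% of all genes called, 0.364% rose), H2-Q7 by 1.12 ± 0.17 (edgeR adjusted p = 0.00201). In type 2 conventional dendritic cells 5 of 9 rose (1.42% called, 1.03% rose), among them B2m by 0.90 ± 0.14 and Nlrc5 by 2.35 ± 0.44. In Ly6c2 monocytes 1 of 9 rose (0.324% called, 0.248% rose), H2-K1 by 1.02 ± 0.19.

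**Figure D3:**
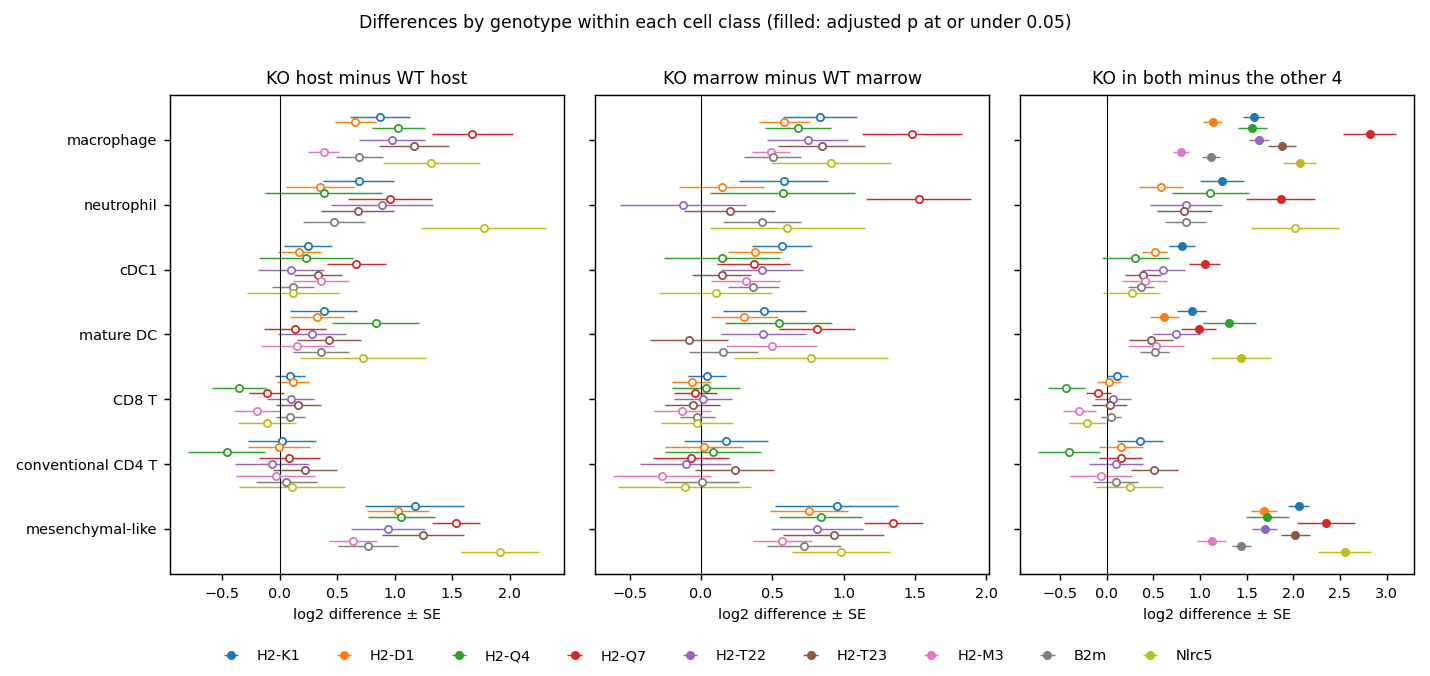
Log2 differences ± SE for the 9 genes in 7 classes: left, KO against WT host; middle, KO against WT marrow; right, the 2 libraries with KO in host and marrow against the other 4. Filled points passed an adjusted p of 0.05; 27 do so on the right, none of them in a T cell class, and 0 in the other panels.

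Whether the change with KO in both compartments differed between classes was tested directly, in 1 fit of a class with macrophages that was added after seeing the data. In CD8 T cells it was smaller than in macrophages for 9 of 9 genes, where 6.11% of all genes differed. The difference was -1.42 ± 0.16 (SE) on the log2 scale for H2-K1, -2.86 ± 0.40 for H2-Q7, -1.02 ± 0.16 for B2m and -2.23 ± 0.24 for Nlrc5. In conventional CD4 T cells 8 of 9 were smaller (1.41% of genes), the exception being H2-M3 (-0.74 ± 0.35). In cDC1 7 of 9 were smaller (3.27% of genes) and in mature dendritic cells 4 of 9 (1.89% of genes), with H2-Q7 at -1.75 ± 0.19 in cDC1 and -1.75 ± 0.21 in mature dendritic cells. Mesenchymal-like cells went the other way for the classical chains: H2-K1 rose by 0.53 ± 0.11 more than in macrophages and H2-D1 by 0.60 ± 0.11 more (2 of 9, 7.02% of genes). Neutrophils had 0 of 9 calls (0.984% of genes, edgeR), with 2 of 9 at an unadjusted p under 0.05, a level at which the share of all genes was not computed. Leaving out 1 library at a time moved the counts to 8 to 9 in CD8 T cells, 4 to 8 in conventional CD4 T cells, 2 to 7 in cDC1, 1 to 2 in mature dendritic cells and 0 to 4 in mesenchymal-like cells. The count for cDC1 was 2 without KO marrow in KO host, and that for mesenchymal-like cells 0 without either intact library. The lower counts for conventional CD4 T cells were 4 when either KO marrow in KO host or the WT chimera in WT host was left out.

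**Figure D4:**
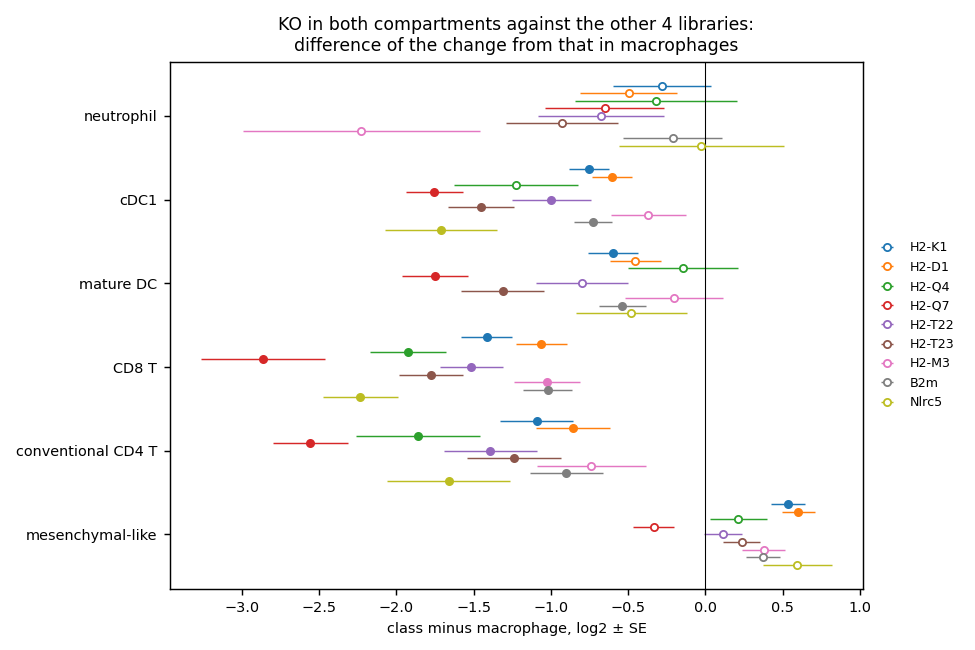
Difference between the log2 change with KO in both compartments in a class and that in macrophages, ± SE, for the 9 genes; filled points passed an adjusted p of 0.05. All points of both T cell classes lie below 0, and H2-K1 and H2-D1 of mesenchymal-like cells lie above 0.

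Host and marrow genotype taken singly gave no call. For KO against WT host, with marrow genotype and transplantation as terms, 0 of 62 tests passed by edgeR. DESeq2 gave 8 calls, with no share of all genes computed. At an unadjusted edgeR p under 0.05 lay 22: 9 of 9 in macrophages (697 of 14685 genes) and in mesenchymal-like cells (613 of 12075). Neutrophils had 2 of 8 (294 of 4767 genes), cDC1 1 of 9 (257 of 7126) and mature dendritic cells 1 of 9 (277 of 5257). CD8 T cells had 0 (1038 of 8463 genes) and conventional CD4 T cells 0 (171 of 5552). The share of all genes called by edgeR was 0.133% in mesenchymal-like cells, 0.147% in neutrophils, 1.58% in CD8 T cells and 0 in the other 4 classes. All 9 genes were positive in macrophages, from 0.38 ± 0.13 (SE) for H2-M3 to 1.67 ± 0.35 for H2-Q7, and in mesenchymal-like cells, from 0.64 ± 0.21 for H2-M3 to 1.91 ± 0.34 for Nlrc5. Leaving out the chimera of WT marrow in KO host raised the count to 9, and that of WT marrow in WT host to 5, with no share of all genes computed. Without WT marrow in KO host, the only KO hosts left are the libraries with both KO. The host term then cannot be told apart from KO in both compartments. For KO against WT marrow, 0 of 62 passed by edgeR, and DESeq2 gave 2 calls, with no share of all genes computed. At an unadjusted edgeR p under 0.05 lay 18: 7 of 9 in macrophages (699 of 14685 genes) and 8 of 9 in mesenchymal-like cells (518 of 12075). Neutrophils had 1 of 8 (170 of 4767 genes), cDC1 1 of 9 (326 of 7126) and mature dendritic cells 1 of 9 (230 of 5257). CD8 T cells had 0 (247 of 8463 genes) and conventional CD4 T cells 0 (269 of 5552). The share of all genes called by edgeR was 0.00828% in mesenchymal-like cells, 0.0561% in cDC1, 0.0473% in CD8 T cells, 0.072% in conventional CD4 T cells and 0 in the other 3 classes. Macrophage H2-K1 differed by 0.87 ± 0.26 with host and 0.83 ± 0.26 with marrow genotype, and mesenchymal-like H2-K1 by 1.17 ± 0.43 and 0.95 ± 0.43. Each of these fits has 2 residual degrees of freedom and assumes that host and marrow effects add.

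A host by marrow interaction term, which drops that assumption, did not pass for any of the 9 genes in the 7 classes. It was 1.78 ± 0.33 (SE, log2) for H2-K1 in mesenchymal-like cells (edgeR adjusted p = 0.188) and 1.13 ± 0.27 in macrophages (adjusted p = 0.650). Within the 4 chimeras alone, macrophage H2-K1 was 1.57 ± 0.14 higher with KO in both compartments, and mesenchymal-like H2-K1 1.96 ± 0.13 higher. Mesenchymal-like H2-Q7 was 2.14 ± 0.43 higher there. Only 1 chimera had KO in both compartments, so sizes alone are given.

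The classical to nonclassical ratio did not pass for either genotype. In macrophages the mean log2 ratio was 2.85 in the 3 KO hosts and 3.31 in the 3 WT hosts, without overlap (exact permutation p = 0.1, adjusted 0.35). With 3 against 3 libraries 0.1 is the smallest p possible. In the 2 libraries with both KO the macrophage ratio was 6.47 and 6.61, against 8.76 to 10.6 in the other 4. The CD8 T cell means were 1.59 and 1.41 for KO and WT hosts (exact permutation p = 0.1, adjusted 0.35), with the opposite sign.

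Nlrc5, the transactivator, followed a pattern of its own in part. In macrophages it was 52.7 CPM in intact KO, 23.9 with KO marrow in KO host, 6.80 with WT marrow in KO host, 4.94 with KO marrow in WT host, 16.0 in intact WT and 4.49 with WT marrow in WT host. Mesenchymal-like cells had 88.0 CPM in intact KO, 15.1 with KO marrow in KO host, 4.59 with WT marrow in KO host, 2.20 with KO marrow in WT host, 13.3 in intact WT and 2.26 with WT marrow in WT host. The value of 2.20 rested on 24 UMIs, with an exact Poisson 95% interval of 1.41 to 3.27 CPM for counting error only. Within intact mice and within chimeras, the library with both KO was thus the highest in both classes.

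In CD8 T cells Nlrc5 was instead 134 and 168 CPM in the intact KO and intact WT libraries and 24.7 to 36.3 CPM in the 4 chimeras. The intact libraries lay above all chimeras for Nlrc5 in 4 of 7 classes: both T cell classes, cDC1 (54.6 to 70.0 against 13.2 to 18.9 CPM) and mature dendritic cells (117 to 201 against 8.01 to 69.6). No heavy chain or B2m did so in any class, apart from H2-Q4 in 1. The reverse, both intact libraries below all chimeras, held for H2-D1 and H2-T23 in 3 of 7 classes each and for B2m in 2. It held in 1 class each for H2-K1, H2-Q7, H2-T22 and H2-M3. The share of all genes separated in either way was not computed. Intact and chimera libraries were also counted with different software versions, so transplantation and software cannot be told apart in these differences. In CD8 T cells H2-K1, H2-D1 and B2m were among the genes with the reverse order: H2-K1 was 1671 and 2180 CPM in the intact libraries and 2670 to 2859 CPM in the chimeras.

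Genes of the same pathway were given by 3 lists, whose counts are to be read against the share of all genes called in either direction, which was 17.8% in macrophages, 2.5% in mesenchymal-like cells, 0.986% in neutrophils, 1.28% in cDC1, 1.43% in mature dendritic cells, 3.92% in CD8 T cells and 0.414% in conventional CD4 T cells. Of 13 genes for peptide loading and proteasome subunits, 12 rose with KO in both compartments in macrophages and 10 in mesenchymal-like cells. The counts were 6 of 11 tested in neutrophils, 3 of 13 in cDC1, 2 of 13 in mature dendritic cells, 0 of 13 in CD8 T cells and 0 of 12 in conventional CD4 T cells; none fell. By mean level the leading genes in macrophages were Calr and Pdia3, chaperones of the loading complex, Psmb8, an immunoproteasome subunit, and Psme1, a proteasome activator. Their log2 changes were 0.33 ± 0.08 (SE), 0.28 ± 0.07, 1.38 ± 0.10 and 0.90 ± 0.12. In mesenchymal-like cells Calr (0.00 ± 0.10) and Pdia3 (-0.06 ± 0.10) did not pass. Tap1, a subunit of the peptide transporter, rose by 2.31 ± 0.15 in macrophages and 3.11 ± 0.26 in mesenchymal-like cells, and Psmb9 by 1.69 ± 0.12 and 2.80 ± 0.15; these 2 genes were chosen after their values were seen.

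Of 9 regulators, 5 rose in macrophages and 2 in mesenchymal-like cells. Among the most abundant in mesenchymal-like cells, Irf1, an interferon-responsive activator of class I genes, had a log2 difference of 1.38 ± 0.30 (edgeR adjusted p = 0.0922) and Nfkb1 1.74 ± 0.43, neither passing. In macrophages Irf1 rose by 2.65 ± 0.12, a gene named there after its values were seen. The structural partners of Nlrc5, also named after their values were seen, did not pass in macrophages: Rfx5 had 0.28 ± 0.13, Rfxap 0.13 ± 0.11 and Rfxank 0.07 ± 0.10. Of 11 other class I and class I-like genes, 8 were tested in macrophages, 4 rose and 2 fell. H2-Q6, nearly identical to H2-Q7, rose by 3.24 ± 0.36, while Fcgrt, the neonatal Fc receptor, fell by 0.73 ± 0.07 and Hfe, which controls iron uptake, fell by 0.60 ± 0.10.

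Over 67 class and library sums of at least 20 cells, the members varied together to different degrees. Pearson's r of log2(CPM + 1) with H2-K1 was 0.89 for H2-Q7, 0.88 for H2-T22, 0.83 for H2-D1, 0.81 for B2m, 0.78 for H2-Q4, 0.70 for H2-T23, 0.58 for H2-M3 and 0.46 for Nlrc5. Sums of a library share its depth and free RNA, and sums of a class share its cell type. Sums of intact and chimera libraries also differ by transplantation and software version, along which Nlrc5 differed in several classes. These values are therefore descriptions. Among 9883 genes with a mean of at least 5 CPM, those most like H2-K1 were Gbp4 (r = 0.82), an interferon-induced GTPase, AW112010 (0.82), Plaat3 (0.79), Xlr4b (0.78), H2-Q6 (0.77), Serpina3g (0.76), Psmb8 (0.75), Tap2 (0.75), Sdf4 (0.74) and Tmem128 (0.74). Those most like Nlrc5 were Lrch3 (0.78), Ppp1r12a (0.75), Rngtt (0.75), Creb1 (0.73) and Ncoa2 (0.73), none of them in the pathway lists.

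With 1 library per group, p-values measure differences between libraries, and the sources used here do not say how many mice stand behind a library.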

How the data were processed

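Raw UMI counts per gene and cell were deposited by the authors for 6 libraries. Per the file headers the intact libraries were made with Cell Ranger 7.0.1 and the chimera libraries with Cell Ranger 6.1.1 on mm10, so version and transplantation cannot be told apart. The submitters' processing notes also name Seurat, and the sources used here do not say whether reads in introns entered the counts. Genes were joined on Ensembl identifier (30406 shared). Filters of 500 UMIs, 200 genes and a mitochondrial share up to 15% left 40414 of 41267 barcodes, and the 6% with the highest Scrublet scores in each library were removed, since Scrublet's own threshold called 0 to 4 cells per library. Marker gates, whose limits were set after the marker distributions were seen, used none of the 9 genes, and 19.6% of cells fell in no class.

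UMIs were summed per class and library and tested with edgeR 4.0.16 (quasi-likelihood, TMM, filterByExpr) in R 4.3.3, with Benjamini-Hochberg adjustment over all genes of a class at 0.05. DESeq2 1.42.0 was an alternative. The scripts were tested on simulated data. The 9 genes, the pathway lists (named genes: up to 4 of highest mean CPM per class) and the contrast of both compartments KO were chosen with earlier results of these data known. Exact Poisson 95% intervals cover counting error only. Total UMIs per library ran from 85616443 to 142779550.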

Additional observations from a re-analysis of the deposited data

Results flagged for a closer look

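The log2 change with KO in host and marrow differed between a class and macrophages for 30 gene and class combinations, tested in 1 fit with the library as a block (edgeR, adjusted p at most 0.05). This test was added after the data were seen. Of all genes, 6.11% differed in CD8 T cells, 1.41% in conventional CD4 T cells and 3.27% in cDC1. The share was 1.89% in mature dendritic cells, 7.02% in mesenchymal-like cells and 0.984% in neutrophils. Leaving out 1 library moved the counts of every class but neutrophils, as given above. In CD8 T cells the difference was -1.42 for H2-K1, -1.06 for H2-D1, -1.93 for H2-Q4, -2.86 for H2-Q7, -1.51 for H2-T22, -1.78 for H2-T23, -1.02 for H2-M3, -1.02 for B2m and -2.23 for Nlrc5. In conventional CD4 T cells it was -1.09 for H2-K1, -0.86 for H2-D1, -1.86 for H2-Q4, -2.56 for H2-Q7, -1.39 for H2-T22, -1.24 for H2-T23, -0.90 for B2m and -1.66 for Nlrc5. All of these changes were smaller in the T cell classes than in macrophages.

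In cDC1 the difference was -0.75 for H2-K1, -0.61 for H2-D1, -1.75 for H2-Q7, -0.997 for H2-T22, -1.45 for H2-T23, -0.73 for B2m and -1.71 for Nlrc5. In mature dendritic cells it was -0.60 for H2-K1, -1.75 for H2-Q7, -1.31 for H2-T23 and -0.54 for B2m. The mesenchymal-like cells had a larger change than macrophages for the classical chains, by 0.53 for H2-K1 and 0.60 for H2-D1.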

How the results depend on the processing

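Genotype groups could not be paired because each group has 1 library and the labels give no other replicate number. Classes were compared within libraries. With host genotype, 0 calls became 8 with DESeq2 and 1 each without the low-count filter, in transplanted libraries only and with 1 more marker per gate. Leaving out 1 library gave 0 to 9, with 9 reached without WT marrow in KO host, where the KO hosts left all had both KO. The share of all genes called was not computed for the settings of this paragraph. With marrow genotype, 0 calls became 2 with DESeq2 and 1 each without the filter and in transplanted libraries only. Leaving out 1 library gave 0 to 4, with 4 reached without KO marrow in WT host, where the KO marrow libraries left all had both KO. The 27 calls with both KO ranged from 19 to 26 when 1 library was left out, and the 33 calls against macrophages from 29 to 38. The classical to nonclassical log2 difference of neutrophils turned to -1.02 as a mean over cells and to -0.0385 without cells of high complement share. That of mesenchymal-like cells was 0.15 as a mean over cells (exact adjusted p = 0.531), and that of mature dendritic cells -0.20 without H2-Q4 and H2-Q7. The cause was not tested. With 1 library left out, 5 remain and the exact p cannot go below 0.0625: the differences ran from -1.67 to -1.49 in CD8 T cells, -1.45 to -1.26 in conventional CD4 T cells, -1.14 to -1.01 in mature dendritic cells, -1.08 to -0.93 in cDC1 and 0.38 to 0.54 in mesenchymal-like cells. Depth limits neutrophils most, whose H2-M3 rested on 0 to 9 UMIs per library.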
